A study of Mus musculus with 8 samples.

Results

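The 34 astrocyte and Bergmann glia genes of the mouse cerebellum were followed across the 2 Atm genotypes of the study. The genes are known markers listed by their symbols, with no rule on their measured levels although earlier results of these data were known, and all 34 were found among the 56691 genes of the count table. RNA was sequenced in bulk from frozen cerebellar tissue of mice aged 6 months, 4 Atm-WT (mice 2M, 7M, 13M and 32M) and 4 Atm-KO (mice 1M, 7F, 11M and 12M), with a library for each mouse. The Atm-WT mice carried both functional alleles (ATM +/+) and the Atm-KO mice were homozygous for the germline Atmtm1Bal allele (ATM -/-). Both groups came from crosses of heterozygous B6;129S4-Atmtm1Bal/J mice. Every cell of the knockout lacks the kinase, so the comparison does not separate glia from the neurons around them. The letter F stands in the label of a single mouse, which was Atm-KO. The labels name no treatment, and the spread between mice is the error of every comparison.

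Astrocytes take up glutamate and potassium released by neurons, and hold the water and ion balance of the tissue through channels on the endfeet that cover blood vessels. They are joined into networks by gap junctions. Bergmann glia are the radial astrocytes of the cerebellar cortex, whose processes run through the molecular layer and wrap the synapses of Purkinje cells. Astrocytes that respond to injury typically gain intermediate filaments such as GFAP and secrete matrix proteins. ATM is a kinase best known for its response to DNA double-strand breaks.

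Library totals ranged from 65967130 to 88030300 counts, and every member had at least 342 counts in every library. Atm, the targeted gene, stood at 67.6, 80.0, 79.4 and 59.0 CPM (counts scaled to library sizes by TMM) in the Atm-WT mice and at 51.1, 44.3, 41.1 and 44.9 CPM in the Atm-KO mice, where counts cover the whole gene. The log2 fold change was −0.66 (SE 0.10, adjusted p = 0.0775 by edgeR's quasi-likelihood test and 2.01e-05 by DESeq2), and the genotypes did not overlap. Atm-KO 12M had the lowest summed level of 12 oligodendrocyte markers (2190 CPM against at most 3760 in the other Atm-KO mice and 3640 to 4700 in Atm-WT), and Atm-WT 32M the highest. The summed level of deep nuclei and brainstem markers was lowest in Atm-KO 12M too, at 99.4 CPM against 186 to 244 CPM in the other mice. Atm-WT 32M also had the lowest sum of 9 nuclear-retained RNAs, at 5120 CPM, where the Atm-WT mice reached 10000 and the Atm-KO mice ranged from 10600 to 16300. Results are therefore also given without these libraries.

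Upstream sequences of 4 members with no overlap between genotypes are shown. Tnc and Gdf10 are secreted genes that stood apart in opposite directions, and the windows of Acsbg1 and Hepacam hold a motif of a glial regulator. Where RefSeq gave several starts, as for Tnc, the one nearest the 5′ end of the gene was taken. Each is the 250 bases before a RefSeq transcription start, written 5′ to 3′ on the strand of the gene. The RefSeq table was built on GRCm38.p6, and the positions come from an own match of each sequence to GRCm39, which was found once. Capitals mark TTCNNNGAA in Acsbg1, the palindrome bound by STAT factors, and TTGGCA in Hepacam, one arm of the site bound by NFI factors.
Acsbg1, chr9:54569170-54569419, minus strand: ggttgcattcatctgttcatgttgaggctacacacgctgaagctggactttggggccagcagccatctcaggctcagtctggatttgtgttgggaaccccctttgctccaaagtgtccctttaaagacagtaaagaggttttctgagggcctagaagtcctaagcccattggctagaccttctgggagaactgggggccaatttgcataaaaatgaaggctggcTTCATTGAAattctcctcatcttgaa
Hepacam, chr9:37278652-37278901, plus strand: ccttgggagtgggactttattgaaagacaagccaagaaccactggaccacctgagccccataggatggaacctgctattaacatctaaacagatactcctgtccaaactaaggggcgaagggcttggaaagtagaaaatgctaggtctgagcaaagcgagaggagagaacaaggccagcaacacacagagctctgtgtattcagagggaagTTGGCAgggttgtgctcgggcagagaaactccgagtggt
Gdf10, chr14:33645294-33645543, plus strand: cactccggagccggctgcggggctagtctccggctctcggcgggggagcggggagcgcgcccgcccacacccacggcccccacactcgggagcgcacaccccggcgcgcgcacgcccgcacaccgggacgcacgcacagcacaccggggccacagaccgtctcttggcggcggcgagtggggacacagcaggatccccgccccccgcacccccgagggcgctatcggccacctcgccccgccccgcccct
Tnc, chr4:63965253-63965502, minus strand: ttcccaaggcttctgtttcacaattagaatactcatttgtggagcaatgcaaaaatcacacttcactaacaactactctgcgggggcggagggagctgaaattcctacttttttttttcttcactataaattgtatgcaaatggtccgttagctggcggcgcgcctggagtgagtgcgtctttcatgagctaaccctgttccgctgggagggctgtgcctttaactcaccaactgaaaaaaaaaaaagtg

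RefSeq promoters (250 bases before to 50 after the start) were matched for 30 of the 34 members, 7 of which had several starts, giving 39 promoters. Searched on both strands, TTCNNNGAA was present in 5 of the 39 (12.8%), those of Acsbg1, Gfap, Ntsr2, Slc1a3 and Slc7a11, against 8.3% of all 32851 promoters of the same length. TTGGCA was present in 3 (7.69%), those of Hepacam, S100b and the second start of Tnc, where it lies at position −19, against 14.1% of all promoters. GACCACCC, the site of GLI factors of the Sonic hedgehog pathway, was in 0 of the 39 and in 0.807% of all promoters. The median GC content was 56.3% in promoters of members and 52.7% in all promoters. The letters are a description of these windows, and no motif is contained in another.

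The members spanned a wide range of levels. Compared per length, as TPM (counts divided by exon length and scaled to the same total in every library), Slc1a2 was the highest with union exon lengths, at 1340 ± 134 TPM (SD, n = 4 Atm-WT mice), followed by Sparcl1 at 1060 ± 87.6 TPM. S100b (871 ± 67.7 TPM), Ndrg2 (870 ± 39.3 TPM) and Sparc (865 ± 38.3 TPM) came next and did not differ from each other beyond their spread. Slc1a3 at 586 ± 55.4 TPM and Slc4a4 at 525 ± 59.6 TPM lay within their spread, as did Slc4a4 and Aqp4 (477 ± 55.5 TPM), after which the levels stepped down to Mlc1 at 234 ± 13.9 TPM. Fxyd1 (13.5 ± 4.34 TPM), Tnc (13.1 ± 2.24 TPM) and Nes (8.95 ± 1.90 TPM) were the lowest. Of the 34 members, 19 were among the top 10% of tested genes by TPM and 32 above the median gene. These levels hold for union exon lengths: with the longest transcript as length, 28 levels moved by more than their SD, and the order at the top became Sparcl1 (1240 TPM), Slc1a3 (1180 TPM) and Slc1a2 (1120 TPM).

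**Figure D1:**
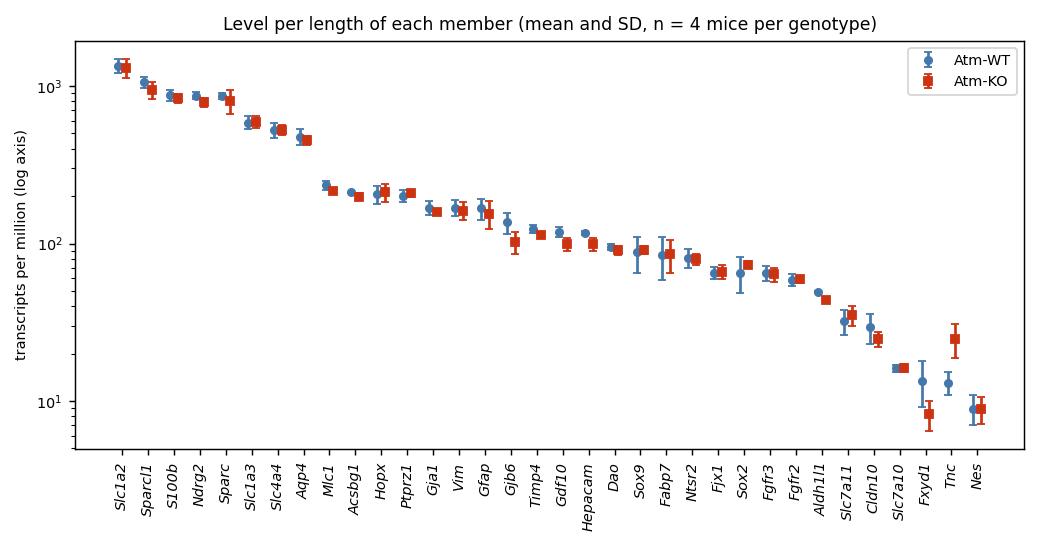
Level per length of the 34 members in TPM on a log axis, ordered by the Atm-WT mean; circles are Atm-WT and squares Atm-KO, with means and SD of 4 mice each. With the union exon lengths used here Slc1a2 stands at the top at 1340 TPM in Atm-WT, and Tnc is near the bottom at 13.1 TPM in Atm-WT and 24.9 TPM in Atm-KO.

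The spread between Atm-WT mice differed strongly among members. The coefficient of variation ranged from 1.5% for Acsbg1 and 1.92% for Aldh1l1, an enzyme that marks astrocytes throughout the brain, to 33.9% for Fxyd1, with a median of 9.43% in Atm-WT and 9.97% in Atm-KO. It was above 20% in 6 members in Atm-WT. Sox2 and Sox9, transcription factors of neural stem cells and astroglia, were both lowest in Atm-WT 13M among the Atm-WT mice. Sox9 stood at 38.6 CPM there against 55.7 to 75.5 CPM in the other Atm-WT mice.

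Whether the glial genes differ by genotype was asked of all 22423 genes that passed the filter on low counts, with 4 Atm-KO against 4 Atm-WT mice. Most members were somewhat lower in the Atm-KO cerebellum. Of the 34, 31 had a log2 fold change below 0, and 22 were below 0 on the TPM scale. Their median was −0.16 and that of all tested genes −0.018. Of all 22423 tested genes, 11900 were below 0, as were 7067 of the 10822 genes at or above the lowest mean of a member. The junction genes Gjb6, Hepacam and Mlc1, the Bergmann glia growth factor Gdf10 and the enzyme Aldh1l1 stood lower in CPM in every Atm-KO mouse than in any Atm-WT mouse, by a mean of 13.4% to 29.9% of the Atm-WT mean. Tnc, a matrix glycoprotein, stood 76.5% higher in Atm-KO.

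No member passed an adjusted p of 0.05 in edgeR (lowest adjusted p = 0.0931 for Tnc and Aldh1l1), a threshold that 0.0178% of all tested genes passed. At an unadjusted p under 0.05, 13 members were lower (38.2%), against 8.48% of all tested genes, and 1 was higher, against 11.7%. Genotypes did not overlap, with every Atm-KO mouse lower, in 8 members (23.5%), against 5.12% of all tested genes. They did not overlap in the other direction in 1 member, Tnc, against 6.47%. Well-expressed genes were more often lower than genes as a whole: among the 10822 genes at or above the lowest mean of a member, 13.9% were lower at an unadjusted p under 0.05, 8.23% were lower with no overlap, and their median was −0.056 on the log2 scale. DESeq2, applied to the same counts, called 8 members lower at an adjusted p under 0.05, against 2.44% of the genes it tested, and Tnc higher, against 5.05%. Those 8 were Fxyd1, Gjb6, Hepacam, Mlc1, Timp4, Gdf10, Aldh1l1 and Ndrg2. In a bulk sample, fewer cells of a type and less RNA per cell cannot be told apart.

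The scaling of the libraries moved these counts. On the TPM scale the median of all tested genes was 0.081 and that of the members −0.058, and 31 of 34 members lay below the median of all genes. With no overlap, 3 members were then lower, namely Gjb6, Hepacam and Aldh1l1, against 1.73% of all genes, and Tnc was higher, against 10.7%. Slc1a3, Slc7a10, Slc4a4, Sox9, Hopx, Fgfr2, Ptprz1, Fjx1 and Fabp7 were below 0 in edgeR and above 0 on the TPM scale. The same 10 members had an unadjusted p under 0.05 in all 17 alternative fits, with Gjb6, Hepacam, Mlc1, Timp4, Gdf10, Aldh1l1, Acsbg1, Ndrg2 and Fxyd1 lower and Tnc higher. The number per fit varied, with 9 to 14 members lower where 4.66% to 8.63% of all genes were.

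**Figure D2:**
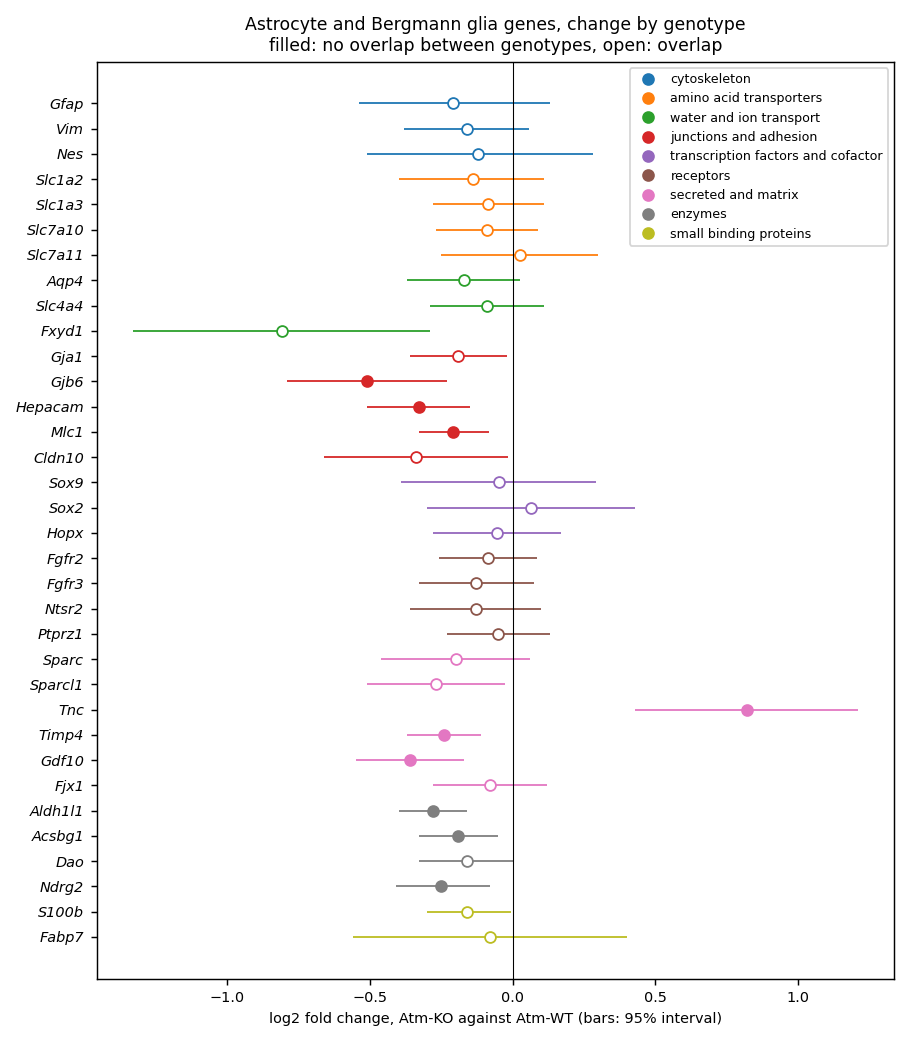
Log2 fold change of each member between Atm-KO and Atm-WT, coloured by role, with the 95% interval of the edgeR fit; filled points are the 9 members whose genotypes did not overlap in CPM. Tnc at 0.82 stands farthest to the right, and Sox2 (0.063) and Slc7a11 (0.026) lie just right of 0. To the left of 0 lie 31 points, of which 9 move to the right of 0 on the TPM scale.

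The members lie on 13 chromosomes of GRCm39, and some of those with no overlap in CPM are placed as follows: Gjb6 at chr14:57360757-57371087 and Mlc1 at chr15:88840084-88863356 on the minus strand, Hepacam at chr9:37278621-37299291 and Aldh1l1 at chr6:90463409-90577185 on the plus strand. Gdf10 lies at chr14:33645273-33659940 on the plus strand and Tnc at chr4:63878014-63965443 on the minus strand. The counts are over the exons of each gene.

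Genes of junctions and adhesion were the role in which most members were lower: all 5 at an unadjusted p under 0.05, where 8.48% of all tested genes and 13.9% of well-expressed genes were, with a median log2 fold change of −0.33 (−0.23 on the TPM scale). Gjb6, Hepacam and Mlc1 stayed under that p in all 17 alternative fits, Gja1 and Cldn10 in 7 of them. Gjb6 encodes connexin 30 and Gja1 connexin 43, the gap junction proteins of astrocytes. Gjb6 stood at 80.5, 75.2, 101 and 77.5 CPM in the Atm-WT mice and at 60.1, 67.6, 61.9 and 44.4 CPM in the Atm-KO mice. All Atm-KO mice were below all Atm-WT mice, with Atm-KO 12M the lowest (log2 fold change −0.51, SE 0.13, adjusted p = 0.0991 by edgeR and 0.00643 by DESeq2). Gja1 ran from 295 to 364 CPM in Atm-WT (295, 326, 313 and 364) and stood at 274, 302, 297 and 264 CPM in Atm-KO. Atm-KO 7F and 11M lay above the lowest Atm-WT mouse, so the genotypes overlapped (log2 fold change −0.19, SE 0.078, adjusted p = 0.204).

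Hepacam encodes GlialCAM, an adhesion protein that brings MLC1 to the contacts between astrocytes. Hepacam was at 93.1, 90.7, 84.5 and 91.5 CPM in Atm-WT and at 64.4, 81.2, 76.2 and 64.2 CPM in Atm-KO, with no overlap (log2 fold change −0.33, SE 0.083, adjusted p = 0.101). Its upstream sequence, shown above, holds TTGGCA at position −39 from the start. Mlc1, the membrane protein mutated in a leukoencephalopathy with subcortical cysts, was at 140, 156, 152 and 153 CPM in Atm-WT and at 130, 130, 133 and 127 CPM in Atm-KO. The difference was small and the Atm-KO mice lay close together (log2 fold change −0.21, SE 0.057, adjusted p = 0.110). Cldn10, a claudin, was at 12.1, 12, 13 and 18.2 CPM in Atm-WT and at 10.2, 11.5, 12.4 and 9.61 CPM in Atm-KO. Its genotypes overlapped, and the log2 fold change of −0.34 (SE 0.15, adjusted p = 0.225) ranged from −0.41 to −0.12 over the alternative fits.

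Among the 6 secreted and matrix genes, 3 were lower and 1 higher at an unadjusted p under 0.05, where 8.48% of all tested genes were lower (13.9% of well-expressed genes) and 11.7% higher. Tnc, Timp4 and Gdf10 stayed under that p in all 17 alternative fits, and Sparcl1 in 8. Tnc encodes tenascin-C, a matrix glycoprotein of developing and injured tissue. Tnc was at 19.2, 17.7, 16.4 and 12.3 CPM in Atm-WT and at 22.1, 32.2, 24.1 and 37.5 CPM in Atm-KO. Every Atm-KO mouse exceeded every Atm-WT mouse, with Atm-KO 12M the highest and Atm-WT 32M the lowest (log2 fold change 0.82, SE 0.18, adjusted p = 0.0931 by edgeR and 0.000675 by DESeq2). Without those 2 libraries its genotypes still did not overlap, and over all alternative fits its log2 fold change ranged from 0.56 to 0.93.

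Gdf10 encodes a secreted factor of the TGF-beta family that marks Bergmann glia. Gdf10 was at 108, 104, 105 and 90.6 CPM in Atm-WT and at 71.2, 87.6, 72.2 and 86.2 CPM in Atm-KO. The highest Atm-KO mouse lay just below the lowest Atm-WT mouse (log2 fold change −0.36, SE 0.087, adjusted p = 0.0948), and the genotypes overlapped on the TPM scale. Timp4, an inhibitor of matrix metalloproteinases, was at 153, 148, 160 and 140 CPM in Atm-WT and at 128, 128, 123 and 130 CPM in Atm-KO, without overlap (log2 fold change −0.24, SE 0.059, adjusted p = 0.0992). Sparcl1, also called hevin, is secreted by astrocytes and promotes synapse formation. Sparcl1 was at 1350, 1160, 1130 and 1340 CPM in Atm-WT and at 928, 1210, 1120 and 881 CPM in Atm-KO, so that Atm-KO 7F alone lay within the Atm-WT range and 1M and 12M were the lowest (log2 fold change −0.27, SE 0.11, adjusted p = 0.207). Sparc, its relative that opposes it at synapses, had a log2 fold change of −0.20 with a 95% interval from −0.46 to 0.06. Fjx1, the homolog of the fly kinase four-jointed, had −0.078 with an interval from −0.28 to 0.12, and was above 0 on the TPM scale.

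**Figure D3:**
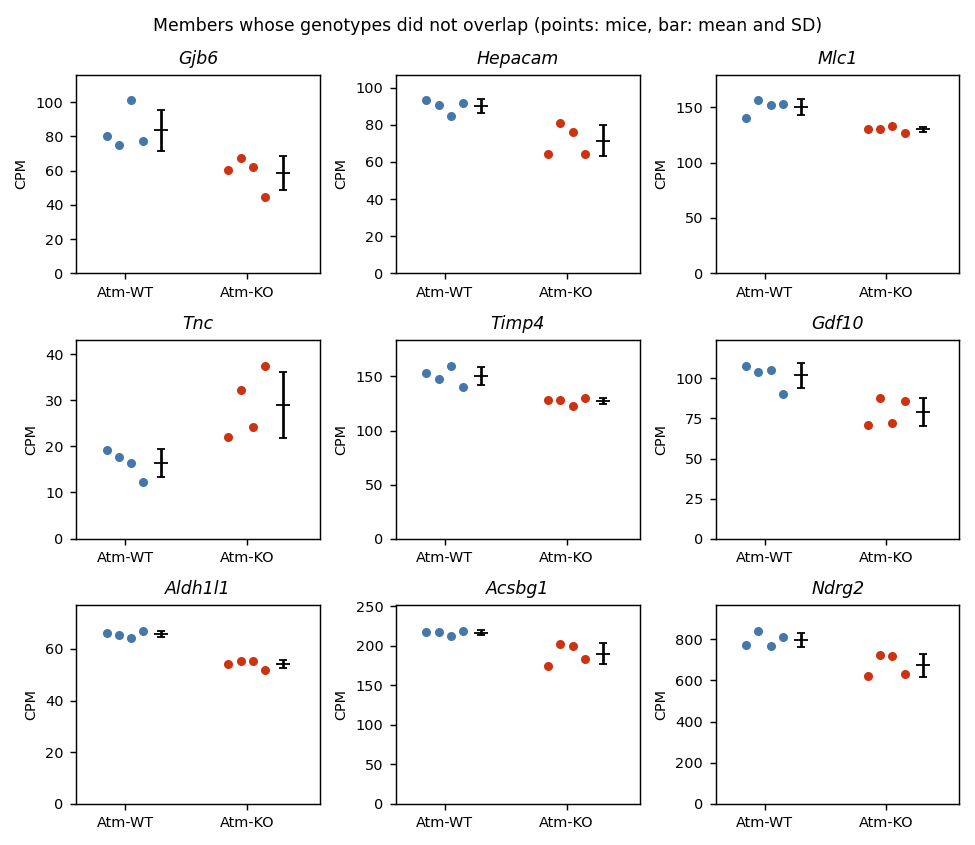
CPM in each mouse for the 9 members whose genotypes did not overlap, with mean and SD of 4 mice beside the points; each panel starts at 0. The 8 lower members differ by shifts that are small beside their level, such as 65.7 to 54.2 CPM for Aldh1l1, and Tnc has means of 16.4 and 29.0 CPM.

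Of the 4 genes grouped as enzymes, 3 were lower with no overlap, where 5.12% of all tested genes and 8.23% of well-expressed genes were. On the TPM scale Aldh1l1 kept the separation, and Acsbg1 and Ndrg2 overlapped. Aldh1l1, the 10-formyltetrahydrofolate dehydrogenase of folate metabolism, varied little within each genotype, with a coefficient of variation of 1.92% in Atm-WT, where counting error alone would give 1.38% for a single library, or 1.95% if both reads of a pair were counted. It was at 66.3, 65.5, 64.1 and 67.0 CPM in Atm-WT and at 54.3, 55.2, 55.2 and 52.0 CPM in Atm-KO. The gap between genotypes was larger than the range within either (log2 fold change −0.28, SE 0.055, adjusted p = 0.0931 by edgeR and 0.00251 by DESeq2). Acsbg1, which activates long-chain fatty acids, was at 218, 217, 212 and 219 CPM in Atm-WT and at 175, 202, 200 and 183 CPM in Atm-KO (log2 fold change −0.19, SE 0.063, adjusted p = 0.144). The genotypes did not overlap, and the spread was wider in Atm-KO. Acsbg1 shares 1875 exonic bases with Idh3a on the opposite strand, which cannot be separated where counting ignores strand, and Idh3a itself had a log2 fold change of −0.056 (SE 0.073). Timp4 shares 1142 exonic bases with Syn2 in the same way, where Syn2 had −0.064 (SE 0.061).

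Ndrg2, a protein with the fold of alpha/beta hydrolases that is abundant in astrocytes, was at 774, 841, 767 and 812 CPM in Atm-WT and at 622, 725, 719 and 629 CPM in Atm-KO. All Atm-KO mice were lower, with 1M and 12M the lowest (log2 fold change −0.25, SE 0.076, adjusted p = 0.128). Dao, the D-amino acid oxidase that breaks down D-serine, ranged from 41.1 to 47.0 CPM in Atm-WT and from 36.1 to 43.7 CPM in Atm-KO (log2 fold change −0.16, SE 0.075, adjusted p = 0.254). Acsbg1 lies 1.06 Mb and Hepacam 16.0 Mb from Atm on chromosome 9, and alleles inherited along with the targeted locus cannot be told apart from the genotype there. The other members lie on other chromosomes.

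Of the 3 genes of water and ion transport, Fxyd1 was lower at an unadjusted p under 0.05, here and in all 17 alternative fits, where 8.48% of all tested genes were lower. Fxyd1 encodes phospholemman, a small regulator of the sodium pump. Fxyd1 was at 13.5, 8.06, 6.10 and 9.45 CPM in Atm-WT and at 4.19, 7.13, 4.81 and 5.08 CPM in Atm-KO. Atm-KO 7F exceeded Atm-WT 13M, and Atm-WT 2M stood high (log2 fold change −0.81, SE 0.24, adjusted p = 0.119 by edgeR and 0.0102 by DESeq2). Aqp4, the water channel of the endfeet, was at 426, 510, 472 and 549 CPM in Atm-WT and at 442, 484, 410 and 402 CPM in Atm-KO. The genotypes overlapped (log2 fold change −0.17, 95% interval −0.37 to 0.026, adjusted p = 0.309). Slc4a4, the sodium bicarbonate cotransporter, had a log2 fold change of −0.09 (interval −0.29 to 0.11) and lay above 0 on the TPM scale.

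No amino acid transporter had an unadjusted p under 0.05 in either direction, and the median log2 fold change of the transporters, −0.087, was 0.012 on the TPM scale. Slc1a2 encodes the glutamate transporter GLT-1, and Slc1a3 encodes GLAST, the main glutamate transporter of Bergmann glia. Slc1a2 was at 2700, 3240, 3070 and 2700 CPM in Atm-WT and at 2510, 2880, 3050 and 2170 CPM in Atm-KO. Only Atm-KO 1M and 12M lay below the Atm-WT range (log2 fold change −0.14, 95% interval −0.40 to 0.11, adjusted p = 0.521). Slc1a3 was at 1300, 1440, 1430 and 1190 CPM in Atm-WT and at 1150, 1280, 1230 and 1390 CPM in Atm-KO, with wide overlap (log2 fold change −0.086, interval −0.28 to 0.11, adjusted p = 0.622). Slc7a10, a transporter of small neutral amino acids including D-serine, had a log2 fold change of −0.089 (interval −0.27 to 0.088) and was above 0 on the TPM scale. It shares 4969 of its 9890 exonic bases with Lrp3 on the opposite strand, which stood at 67.1 CPM in Atm-WT where Slc7a10 stood at 24.9 CPM, so its level is uncertain. Slc7a11, the cystine and glutamate exchanger, had 0.026 (interval −0.25 to 0.30).

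No intermediate filament gene had an unadjusted p under 0.05 either. Gfap, the classic filament of astrocytes that respond to injury, was at 150, 126, 143 and 179 CPM in Atm-WT and at 127, 161, 139 and 90.7 CPM in Atm-KO. Atm-KO 12M alone lay below the Atm-WT range (log2 fold change −0.21, 95% interval −0.54 to 0.13, adjusted p = 0.476), and without Atm-WT 32M and Atm-KO 12M the log2 fold change was 0.028. Vim, which encodes vimentin, had −0.16 (interval −0.38 to 0.056), and Nes, which encodes the progenitor filament nestin, had −0.12 (interval −0.51 to 0.28).

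Of the 2 small binding proteins, S100b was lower at an unadjusted p under 0.05, where 8.48% of all tested genes and 13.9% of well-expressed genes were, and stayed under that p in 6 of 17 alternative fits. S100b encodes a calcium-binding protein secreted by astrocytes, and was at 257, 259, 277 and 295 CPM in Atm-WT and at 264, 242, 240 and 231 CPM in Atm-KO. Atm-KO 1M lay within the Atm-WT range and the other Atm-KO mice below it (log2 fold change −0.16, SE 0.068, adjusted p = 0.234). Fabp7, the brain lipid-binding protein of radial glia, varied widely, from 9.85 to 21.8 CPM in Atm-WT and from 12.9 to 21.1 CPM in Atm-KO (log2 fold change −0.081, interval −0.56 to 0.40), and was above 0 on the TPM scale.

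No transcription factor or receptor had an unadjusted p under 0.05. Sox9 had a log2 fold change of −0.049 (interval −0.39 to 0.29), Sox2 of 0.063 (interval −0.30 to 0.43) and Hopx, a homeodomain cofactor that does not bind DNA, of −0.054 (interval −0.28 to 0.17), where Sox9 and Hopx were above 0 on the TPM scale. Fgfr2 and Fgfr3, receptors of fibroblast growth factors, had −0.087 and −0.13, Ntsr2, a neurotensin receptor, had −0.13, and Ptprz1, a receptor-type tyrosine phosphatase, had −0.051. Fgfr2 and Ptprz1 were above 0 on the TPM scale. All 4 intervals crossed 0.

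Ratios within a mouse were compared for 5 pairs of related members. Gjb6 over Gja1 was −1.87, −2.11, −1.64 and −2.23 as a log2 CPM ratio in the Atm-WT mice and −2.19, −2.16, −2.26 and −2.57 in the Atm-KO mice. The means differed by −0.33 (exact permutation test, two-sided, p = 0.0857, and 0.428 after Benjamini-Hochberg adjustment over the 5 pairs, n = 4 mice per genotype). With 4 against 4 mice the smallest possible exact p was 0.0286, so a single differing pair could not pass 0.05 after this adjustment. Gjb6 was not shown to differ more than Gja1, and the adjusted test could not decide it. The ratios Slc1a2 over Slc1a3, Slc7a10 over Slc7a11, Fgfr2 over Fgfr3 and Sparcl1 over Sparc differed by −0.12 to 0.048, with exact permutation p from 0.343 to 0.886.

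By mouse, the median of the 34 members relative to the Atm-WT mean was 0.014, 0.006, −0.041 and 0.035 on the log2 scale in the Atm-WT mice 2M, 7M, 13M and 32M. It was −0.21, −0.073, −0.12 and −0.24 in the Atm-KO mice 1M, 7F, 11M and 12M. The Atm-KO mice thus did not form an even group, with 1M and 12M lower than 7F and 11M. Atm-KO 12M was the lowest of all 8 mice in 16 members and Atm-KO 7F in 0. Without Atm-KO 12M, 10 members were lower at an unadjusted p under 0.05, against 6.01% of all genes tested in that fit, and 8 without overlap, against 6.12%, with a median log2 fold change of −0.13. Without both Atm-KO 12M and Atm-WT 32M, 13 were lower at an unadjusted p under 0.05, against 6.05% of all genes tested, with a median of −0.097. In that fit 11 were lower without overlap, against 8.69%, and since fewer mice separate more easily by chance this count cannot be set against the 8 of the full comparison.

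**Figure D4:**
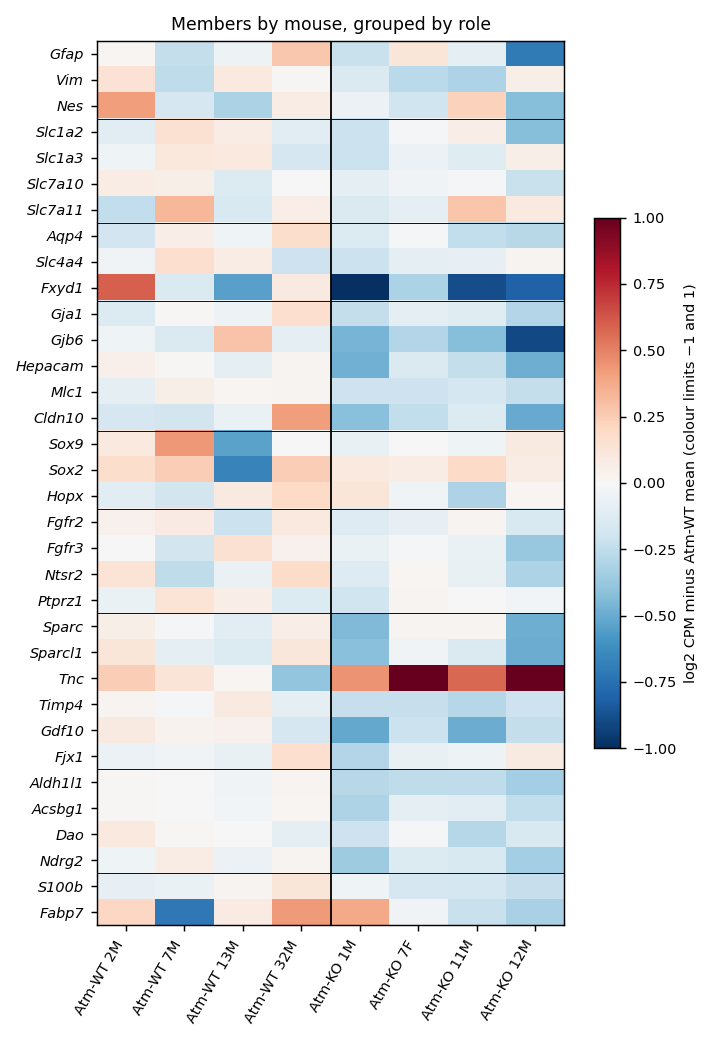
Level of each member in each mouse as log2 CPM minus the Atm-WT mean, with colours limited at −1 and 1, rows grouped by role and a vertical line between genotypes. The junction and enzyme rows are blue in most Atm-KO columns and the Tnc row is red; the filament, transporter and transcription factor rows are mixed.

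Other genes of the same cells were read from separate lists. Of 35 further astroglial genes, 15 were lower and 0 higher at an unadjusted p under 0.05 in edgeR, against 8.48% of all tested genes and 13.9% of well-expressed genes lower. With no overlap, 7 were lower, against 5.12% and 8.23%, and on the TPM scale 3 were lower and 1 higher. The median log2 fold change was −0.20 (−0.11 on the TPM scale). By adjusted p, edgeR called 0 of the 35 and DESeq2 called 5 lower, against 2.44% of all genes it tested. Etnppl, an ethanolamine-phosphate lyase of astrocytes, stood at 128 ± 24.8 CPM in Atm-WT mice and at 85.0 ± 19.0 CPM in Atm-KO mice (log2 fold change −0.60, SE 0.16, adjusted p = 0.111). F3, the tissue factor that starts coagulation, stood at 38.4 ± 3.01 and 28.8 ± 3.54 CPM (log2 fold change −0.42, SE 0.096, adjusted p = 0.0942). Cst3, the protease inhibitor cystatin C, had −0.43 and overlapped between genotypes on the TPM scale, and Lfng, a glycosyltransferase that modifies Notch, had −0.42.

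Genes that mark reactive astrocytes were looked at as a separate list. Of the 30 tested of 32, 14 were lower and 0 higher at an unadjusted p under 0.05 in edgeR, where 8.48% of all tested genes were lower and 11.7% higher, and 5 were lower with no overlap, against 5.12%. On the TPM scale 3 were lower with no overlap. The median log2 fold change was −0.43 (−0.34 on the TPM scale), and 4 of the 30 were above 0. By adjusted p, edgeR called 0 and DESeq2 called 8 lower, against 2.44% of all genes it tested. Lcn2, the iron-siderophore carrier lipocalin-2, was at 0.924, 1.02, 1.61 and 0.210 CPM in Atm-WT and at 0.196, 0.181, 0.103 and 0.148 CPM in Atm-KO. Atm-WT 32M lay close to the Atm-KO mice, and the genotypes overlapped on the TPM scale (log2 fold change −2.57, SE 0.53, adjusted p = 0.0931). Cd14, the co-receptor for lipopolysaccharide, had −0.86, Fbln5, which encodes fibulin-5 of elastic fibres and overlapped on the TPM scale, −0.70, and Srgn, which encodes the granule proteoglycan serglycin, −0.66. These 3 are also expressed by microglia, blood or vessel cells.

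The dystrophin complex anchors AQP4 at the endfoot. Of its 6 genes, 2 were lower and 0 higher at an unadjusted p under 0.05, where 8.48% of all tested genes and 13.9% of well-expressed genes were lower. FGF signals reach Bergmann glia through the receptors above. Of 14 pathway genes, 3 were lower and 1 higher at an unadjusted p under 0.05, where 8.48% of all tested genes and 13.9% of well-expressed genes were lower. Of all tested genes, 11.7% were higher. With no overlap, 3 were lower and 1 higher, against 5.12% and 6.47% of all tested genes. These counts of few genes were not tested against the background. Among the genes past both were the feedback inhibitors Spry4 (log2 fold change −0.56) and Dusp6 (−0.40) and the transcription factor Etv4 (0.36). Of these, Spry4 and Dusp6 overlapped between genotypes on the TPM scale. The median of the list was −0.087, and 0.014 on the TPM scale. Sonic hedgehog from Purkinje cells acts on Bergmann glia through GLI factors. Of 12 pathway genes, 2 were lower and 1 higher at an unadjusted p under 0.05, near the 13.9% and 11.7% above. Gli2, which overlapped on the TPM scale, was at −0.32 and the co-receptor Cdon at 0.46. The median was −0.003 (0.099 on the TPM scale). edgeR called 0 genes of these 3 lists by adjusted p. DESeq2 called 1 lower in the endfoot list, 2 lower and 1 higher in the FGF list, and 1 lower and 1 higher in the Sonic hedgehog list. Of all genes it tested, DESeq2 called 2.44% lower and 5.05% higher.

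Markers of some other cell types were lower as well, to be read against the 8.48% of all tested genes and 13.9% of well-expressed genes that were lower. Of 12 microglia markers, 8 were lower at an unadjusted p under 0.05, and their summed level was 154 to 210 CPM in Atm-WT and 118 to 155 CPM in Atm-KO. The oligodendrocyte markers were lower in 4 of 12, the endothelial markers in 4 of 12 and the mural cell markers in 4 of 8. The other marker lists had 0 to 2 lower genes each. Choroid plexus markers were lower in 2 of 7, Purkinje cell markers in 2 of 8, oligodendrocyte precursor markers in 1 of 7 and meningeal fibroblast markers in 1 of 6. Granule cell, molecular layer interneuron and deep nuclei markers were lower in 0 of 6, 0 of 4 and 0 of 4 tested. Within the deep nuclei list, Slc17a6 was at 4.32 CPM in Atm-KO 12M and at 73.6 to 116 CPM in the other mice. Slc6a5 of the same list stood at 55.2 CPM in that mouse, within the range of the others. Why Atm-KO 12M stood apart was not tested. Summed levels of Purkinje cell markers (9500 to 11600 CPM in Atm-WT and 9330 to 11100 CPM in Atm-KO) and granule cell markers (4680 to 5670 and 4950 to 6770 CPM) overlapped between genotypes. Of 9 nuclear-retained RNAs, 8 were higher at an unadjusted p under 0.05, where 11.7% of all tested genes were. All 8 were higher without overlap, against 6.47% of all tested genes, and the median of the 9 was 0.71 on the log2 scale. The part of these shifts in the lower levels of the members was not tested. With the oligodendrocyte level as a covariate, 11 members were lower at an unadjusted p under 0.05, against 6.25% of all genes in that fit, with a median log2 fold change of −0.11 where all genes had −0.00049.

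**Figure D5:**
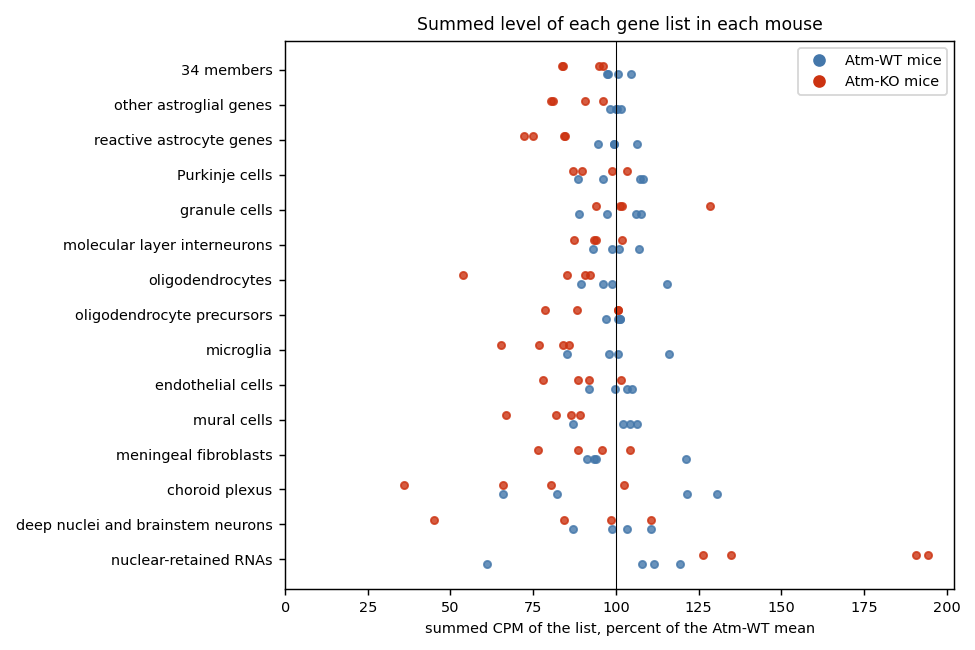
Summed CPM of each gene list in each mouse as percent of the Atm-WT mean, with 4 mice per genotype as points. The members summed to 11130 to 11970 CPM in Atm-WT and 9597 to 10990 CPM in Atm-KO; oligodendrocyte markers are lowest in Atm-KO 12M, and nuclear-retained RNAs are higher in every Atm-KO mouse than in any Atm-WT mouse.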

How the data were processed

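RNA of frozen cerebellar tissue from 8 mice, 4 Atm-WT and 4 Atm-KO, was sequenced by Novogene. The authors checked reads with FastQC 0.11.9, aligned them with STAR to GRCm39 and counted them with featureCounts, and the deposited values are raw counts per gene. The strand and pair settings are not given in the sources used here. Between 67.3% and 73.3% of counts from 1 to 50 in a library were even, so a count may be a read rather than a fragment. Of 56691 gene identifiers, 56017 were matched to GENCODE vM39.

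Libraries were grouped by the genotype in their label, and the labels do not pair mice. Genotypes were compared in R 4.3.3 with edgeR 4.0.16 (filterByExpr, 22423 genes; TMM; glmQLFit and glmQLFTest; Benjamini-Hochberg adjustment over all genes tested; no covariate). Unadjusted p-values were read against their share over all tested genes. CPM used TMM factors. TPM were computed from the deposited counts and union exon lengths. DESeq2 1.42.0, limma voom (limma 3.58.1), RLE factors, library size alone, no filter, at least 10 counts in every library, protein-coding genes alone, an oligodendrocyte covariate and leaving out each library were alternatives. The TPM scaling and leaving out Atm-WT 32M with Atm-KO 12M were chosen after seeing the data. On simulated data of 22423 genes, edgeR recovered 83% of 200 changes of 2-fold with 9 false calls, and made 1 call in data without change. Changes as small as those of the members were not simulated, so this recovery does not apply to them.

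The members, gene lists and tests were chosen with earlier results of these data known. All 34 members were named, and 18 were given in every library: Gfap, Aqp4, Slc1a2, Slc1a3, S100b and Gdf10 whatever their values, and every member with no overlap or an unadjusted p under 0.05. From each other list, up to 4 genes in each direction with the largest difference among those with no overlap and an unadjusted p under 0.05 were taken; for marker lists of other cells counts are given alone. The values of 1 gene of these lists are not reported here. Protein sequences were not used here.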

Additional observations from a re-analysis of the deposited data

Results flagged for a closer look

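In 4 of 70 groups of 4 values tested, over the 34 members and Atm in each genotype, a single mouse stood far from the other mice of its genotype, and chance would give about 3.5. Cldn10 was at 18.2 CPM in Atm-WT 32M, where the other Atm-WT mice were at 12 to 13 CPM. Fjx1 was at 35.8 CPM in the same mouse, against 30.4 to 31.2 CPM in the others. Sox2 was at 12.8 CPM in Atm-WT 13M, against 23.0 to 24.2 CPM. Fgfr3 was at 68.9 CPM in Atm-KO 12M, against 85.5 to 88.7 CPM in the other Atm-KO mice.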

How the results depend on the processing

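Over the alternative fits, 9 to 14 members were lower at an unadjusted p under 0.05, where 4.66% to 8.63% of all genes were, and Tnc was the 1 higher. With all 8 mice 7 or 8 were lower with no overlap, where 2.64% to 5.12% of all genes were, and with 1 mouse left out 8 to 10, where 6.12% to 8.43% of all genes were. The median log2 fold change of the members ranged from −0.19 to −0.097. On the TPM scale the median was −0.058 and 3 members were lower with no overlap. By adjusted p, 0 members were called in edgeR, 9 by DESeq2 and 6 with no filter on low counts (Fxyd1, Gjb6, Hepacam, Tnc, Gdf10 and Aldh1l1). Over all tested genes edgeR called 4, DESeq2 1552, no filter 591, protein-coding genes alone 2, the oligodendrocyte covariate 15 and leaving out Atm-WT 32M with Atm-KO 12M 24. Leaving out 1 library gave from 1 to 27 calls: 27 without Atm-WT 13M, 10 without Atm-WT 32M, 2 without Atm-WT 7M, and 1 without Atm-WT 2M, Atm-KO 1M or Atm-KO 11M. The cause of these changes was not tested.

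Of the members, 27 kept their sign in all 17 alternative fits and 7 did not. None of these 7 had an unadjusted p under 0.05. Gfap was at 0.028 without Atm-WT 32M and Atm-KO 12M. Sox9 was at 0.0026 with library size alone. Fabp7 was at 0.079 with the covariate and at 0.16 without Atm-WT 32M and Atm-KO 12M. With 1 library left out, the log2 fold change ranged from −0.23 to 0.036 for Nes, −0.054 to 0.14 for Slc7a11, −0.18 to 0.11 for Sox9, −0.098 to 0.14 for Sox2, −0.12 to 0.037 for Hopx and −0.27 to 0.066 for Fabp7. No paired analysis was possible because the labels pair no mice. How strand was treated in counting is unknown here, and 18 members share exonic bases with a gene on the opposite strand. The letter F stands in the label of 1 Atm-KO mouse, and sex was not examined here.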
